A study of Mus musculus with 7 samples.

Results

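The 10 enzymes described here carry pyruvate into the mitochondrial tricarboxylic acid (TCA) cycle, turn the cycle, or feed and drain it. They are Pcx, Pdha1, Cs, Idh2, Idh3a, Ogdh, Mdh1, Mdh2, Me3 and Glud1. They were chosen by gene symbol, and all 10 were measured among the 22180 genes with a probe set of a single gene. Pancreatic islets of mice were compared on 7 Affymetrix whole-transcript arrays. The 3 control arrays carried islets of Gata6 flox/flox mice. The 4 arrays labelled Gata6 KO carried islets of Gata6 flox/flox;Pdx1-Cre mice, so both groups share the floxed alleles. Cre was present in that group alone, and an effect of Cre cannot be told apart from one of Gata6. The Pdx1 promoter is active early in the whole pancreatic epithelium, so acinar and duct cells can carry the deletion as well as islet cells. Islets of 3 mice, 2 months old, were pooled for each array, and p-values therefore cover the spread between pools.

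Pyruvate from glycolysis enters mitochondria through a carrier and is then either oxidised to acetyl-CoA by pyruvate dehydrogenase or carboxylated to oxaloacetate by pyruvate carboxylase. Beta cells use both routes when glucose rises. Carboxylation lets intermediates leave the cycle again as malate or citrate, which supports NADPH and lipid precursors, and the oxidation of acetyl-CoA supplies the ATP that closes KATP channels. Glutamate dehydrogenase adds carbon from glutamate, and leucine activates it in beta cells.

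Pdha1, Idh2 and Glud1 were higher on the arrays labelled Gata6 KO, by 0.55, 0.45 and 0.56 on the log2 scale relative to the median gene. These were 3 of the 10 enzymes, where 17.4% of all genes were called higher and 24.7% in either direction. A call meant limma's p, adjusted by Benjamini-Hochberg across the 22180 genes, under 0.05. None of the 10 was called lower, where 7.36% of all genes were, and none had an unadjusted p under 0.05 in that direction, where 11% of all genes did. The median difference of the 10 enzymes was 0.25 (0.14 without Gata6 KO array 1 and 0.37 without Gata6 KO array 3), beside 0.17 for all genes. That median of 0.17 is a shift between the groups in the deposited values. It became -0.06 with each array centred on the median of its tested genes and 0.02 after a repeated quantile normalization. A difference relative to the median gene has this 0.17 subtracted, and its SE and adjusted p are those of the difference as measured. The 3 calls were not firm. With centring 0 of the 10 passed, and after quantile normalization 1 was higher (Pdha1) and 1 lower (Mdh2).

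**Figure D1:**
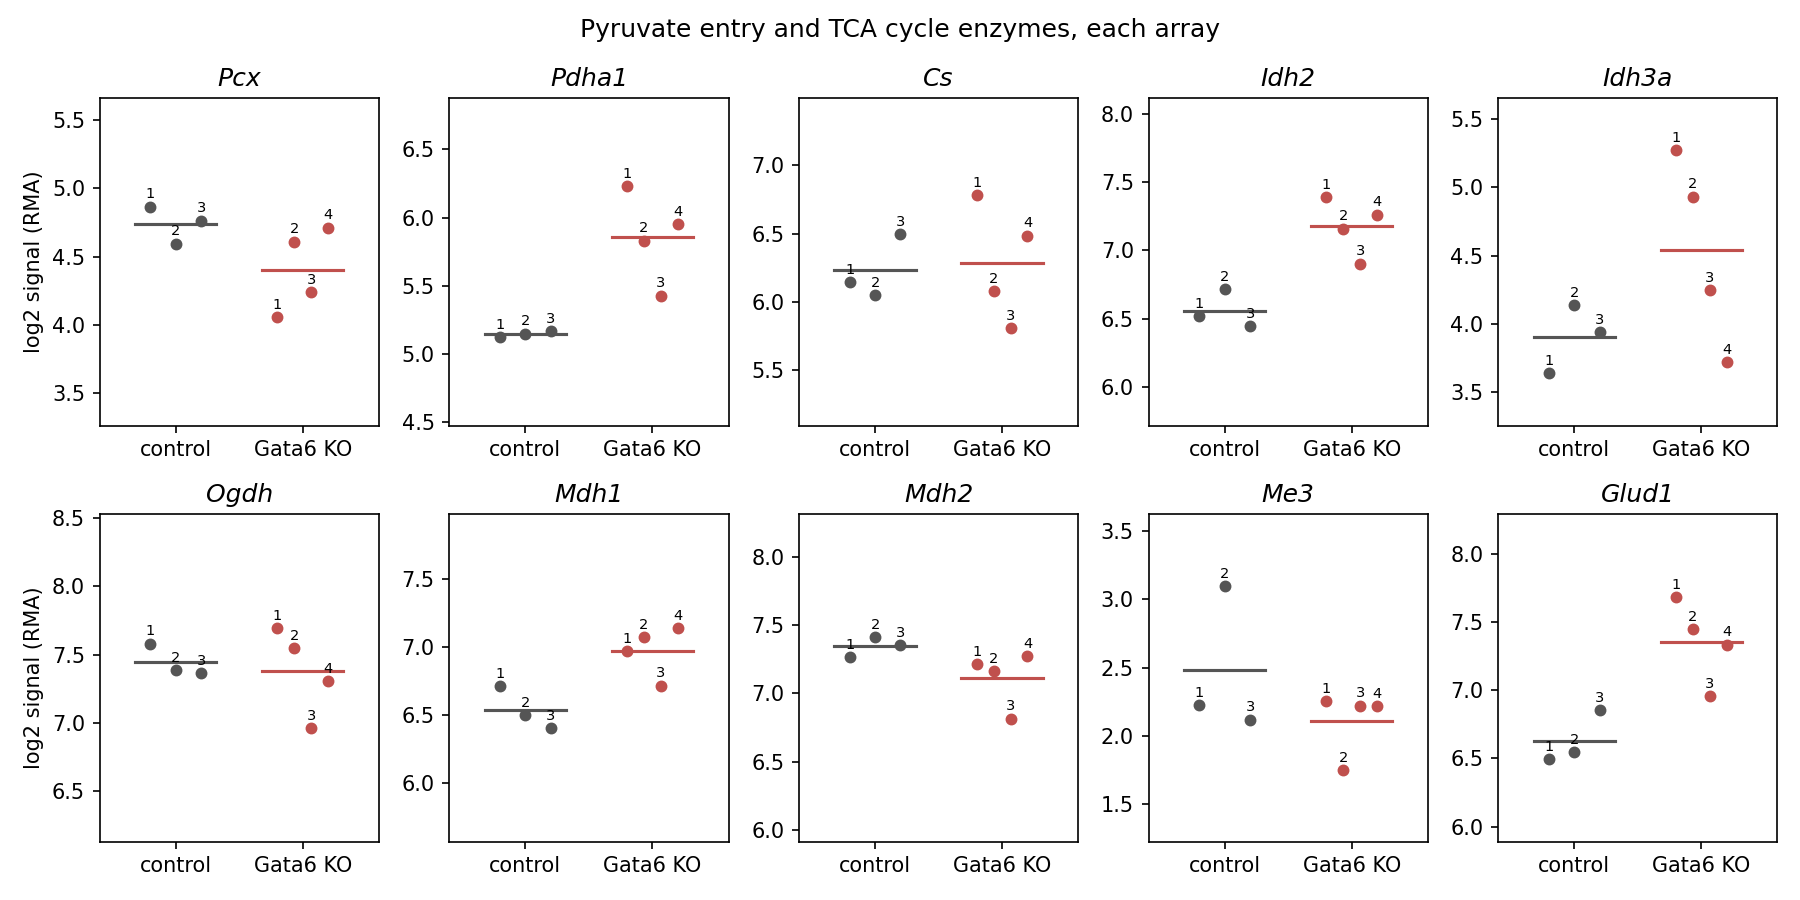
Log2 signal (RMA, vertical axis) of the 10 enzymes on each array, with the replicate number beside each point, grey for control (n = 3), red for Gata6 KO (n = 4), and a line at each group mean. Each panel spans the same log2 range. For Pdha1, Idh2, Glud1 and Mdh1 the 4 red points all lie above the 3 grey points.

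Gata6 itself did not fall in the group labelled Gata6 KO. Its log2 signal was 4.74 ± 0.12 (SD, n = 3) in the controls and 5.28 ± 0.18 (SD, n = 4) on the others (limma adjusted p = 0.0622, from 0.0312 to 0.344 over the alternatives), and where its probes lie relative to the floxed exons was not checked. Directions here follow the labels. The tissue also differed in its cell type markers. All 8 measured beta-cell markers and 6 of 7 other endocrine markers were called lower. Of the acinar markers 7 of 13 and of the mesenchymal markers 7 of 8 were called higher, and 3 of 6 endothelial markers were called lower. Calls among all genes were 17.4% higher and 7.36% lower. The mean log2 signal of the beta-cell list ran from 8.12 to 8.70 in the controls and from 5.14 to 6.73 on the others. That of the acinar list ran from 9.94 to 10.03 and from 10.81 to 10.93, and that of the mesenchymal list from 2.75 to 3.54 and from 3.64 to 5.56. Over the 7 arrays the most abundant beta-cell markers, Iapp and G6pc2, ran from 8.01 to 10.92 and from 5.93 to 10.71, and the other endocrine genes Sst and Gcg from 8.72 to 12.38 and from 6.85 to 12.12. The acinar genes Ctrb1 and Cela1 stayed between 13.12 and 13.54, near the top of the scale, while Dcn and Col1a1 of the mesenchymal list ran from 3.20 to 7.58 and from 3.33 to 7.08, and Plvap and Kdr of the endothelial list from 5.0 to 7.7 and from 4.28 to 6.23. Pdx1, the beta-cell marker with the lowest mean, measured from 3.50 to 5.48. The lowest single value of that list was 3.09, for Ucn3 on Gata6 KO array 3. All beta-cell markers lay above the median of tested genes, which was 2.23 to 2.57 per array. The TCA cycle runs in all of these cells, so in bulk islets a change in cell mixture and a change of RNA per cell cannot be told apart. The part of these markers in the results below was not tested.

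**Figure D2:**
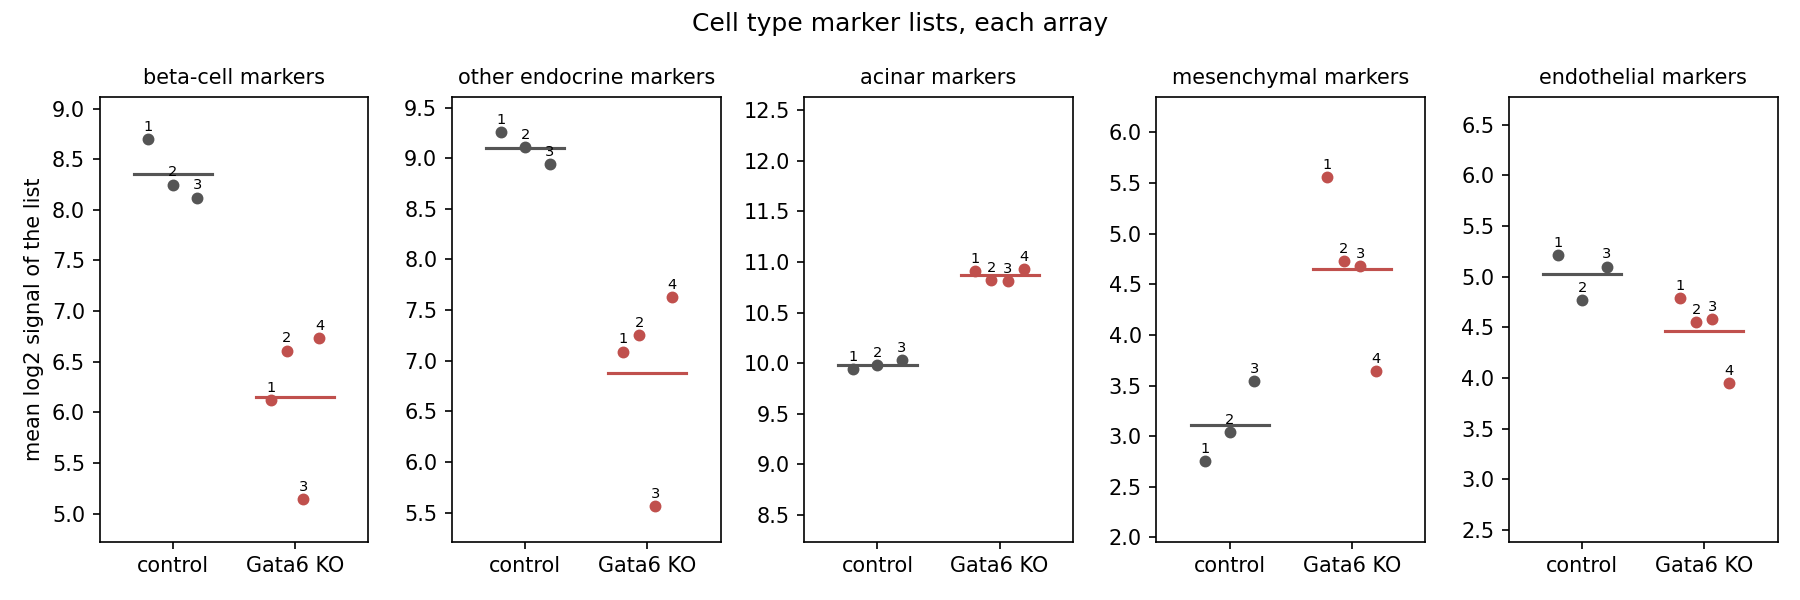
Mean log2 signal (vertical axis) of 5 cell type marker lists on each array, with the replicate number beside each point and a line at the group mean (grey control, n = 3; red Gata6 KO, n = 4). The beta-cell and other endocrine lists are lower and the acinar list higher on all 4 red arrays, while the mesenchymal mean of array 4 (3.64) lies close to that of control array 3 (3.54).

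The 2 enzymes that receive pyruvate moved apart. Their upstream sequences are shown because they head the pair whose balance differed most. Each runs from 250 bases before to 50 bases after an annotated start in RefSeq (GRCm38.p6). The Pcx window is chr19:4510222-4510521 on the plus strand, the first of 2 listed starts, and the Pdha1 window is chrX:160138381-160138680 on the minus strand. Capitals mark CCAAT boxes.
Pcx: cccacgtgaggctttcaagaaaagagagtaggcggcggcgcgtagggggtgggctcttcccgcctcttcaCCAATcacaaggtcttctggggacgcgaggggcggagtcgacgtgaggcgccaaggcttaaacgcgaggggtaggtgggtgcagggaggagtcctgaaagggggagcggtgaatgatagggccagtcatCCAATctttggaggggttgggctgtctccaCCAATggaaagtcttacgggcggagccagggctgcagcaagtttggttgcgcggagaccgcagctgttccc
Pdha1: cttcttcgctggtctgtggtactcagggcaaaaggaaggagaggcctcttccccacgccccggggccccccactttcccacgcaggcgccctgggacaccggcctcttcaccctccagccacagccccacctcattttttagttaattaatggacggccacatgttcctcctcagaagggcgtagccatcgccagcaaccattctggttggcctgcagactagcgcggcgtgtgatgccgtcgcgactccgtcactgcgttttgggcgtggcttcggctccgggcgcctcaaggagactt
The Pcx window holds 3 CCAAT boxes and the Pdha1 window 0, and 37.4% of 32851 promoter windows of this length hold at least 1 on either strand. A match is a string of letters and says nothing of binding.

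Pdha1 encodes the E1 alpha subunit of pyruvate dehydrogenase, the subunit that phosphorylation switches off. Its log2 signal was 5.12, 5.15 and 5.17 on control arrays 1 to 3 and 6.23, 5.83, 5.43 and 5.95 on Gata6 KO arrays 1 to 4. The control arrays lay within a narrow band and every Gata6 KO array lay above it. The difference was 0.71 (SE 0.22, limma adjusted p = 0.0273), or 0.55 relative to the median gene. The Pdha1 call was lost with centring (adjusted p = 0.159), without control array 1, 2 or 3 (adjusted p = 0.0879, 0.0838 and 0.0706), and without Gata6 KO array 1 or 2 (adjusted p = 0.0619 and 0.0551).

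Pcx encodes pyruvate carboxylase, the anaplerotic entry that beta cells express strongly. It measured 4.87, 4.59 and 4.76 in the controls and 4.06, 4.61, 4.24 and 4.71 on the Gata6 KO arrays. Gata6 KO arrays 2 and 4 fell inside the control range and arrays 1 and 3 below it. The Pcx difference of -0.34 (SE 0.22) did not pass (limma adjusted p = 0.283), and relative to the median gene it was -0.50. Set against each other within an array, Pcx minus Pdha1 was -0.26, -0.56 and -0.40 in the controls and -2.17, -1.22, -1.19 and -1.24 on the others. The groups did not overlap, and the balance moved by 1.05 towards Pdha1 (exact two-sided permutation p = 0.0286, the smallest of 35 splits, adjusted p = 0.0429 over 3 pairs). Single genes were apart for 34.3% of all genes in either direction, and the share over other gene pairs was not computed. The 3 pairs were chosen with earlier results of these data known, and these p-values do not allow for that choice. A within-array difference does not move with a constant offset of the array. Without Gata6 KO array 1 the shift towards Pdha1 was still 0.81, but no design with 6 arrays can pass here. With 3 arrays in each group, as in that set, the adjusted p cannot go below 0.10. The beta-cell marker mean was lower on all 4 of these arrays, and its part in this balance was not tested.

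The first reaction of the cycle joins acetyl-CoA to oxaloacetate through citrate synthase (Cs), which is often used as a gauge of mitochondrial content. Cs measured 6.14, 6.05 and 6.50 in the controls and 6.78, 6.08, 5.81 and 6.49 on the Gata6 KO arrays. The groups overlapped throughout, with a Cs difference of 0.06 (SE 0.24, limma adjusted p = 0.890), whose sign turned with centring and quantile normalization.

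Isocitrate is oxidised in mitochondria by 2 separate enzymes, the NADP-dependent Idh2 and the NAD-dependent Idh3, whose catalytic subunit is Idh3a. Idh2 measured 6.52, 6.72 and 6.44 in the controls and 7.39, 7.16, 6.90 and 7.26 on the Gata6 KO arrays. All Gata6 KO arrays exceeded all control arrays. The Idh2 difference was 0.62 (SE 0.19, limma adjusted p = 0.0313), or 0.45 relative to the median gene. That call was lost with centring (adjusted p = 0.208), after quantile normalization (adjusted p = 0.115), without control array 1, 2 or 3 (adjusted p = 0.102, 0.0569 and 0.105) and without Gata6 KO array 1 or 2 (adjusted p = 0.0663 for each).

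Idh3a had the widest spread of the 10 among the Gata6 KO arrays. It measured 3.64, 4.13 and 3.94 in the controls and 5.27, 4.93, 4.25 and 3.72 on the others, with an SD of 0.25 (n = 3) against 0.70 (n = 4). Gata6 KO array 4 lay inside the control range and array 1 far above it. The Idh3a difference of 0.64 (SE 0.32) did not pass (limma adjusted p = 0.158), and it was 0.91 without array 4 (adjusted p = 0.0259) and 0.39 without array 1 (adjusted p = 0.352). The within-array balance of Idh2 and Idh3a averaged 2.66 in the controls and 2.64 on the others, a difference of -0.02 (exact two-sided permutation p = 1.0). Array 4 stood at 3.54 and array 1 at 2.12, so that average hides a wide spread.

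Ogdh, the E1 subunit of the 2-oxoglutarate dehydrogenase complex, measured 7.58, 7.39 and 7.37 in the controls and 7.69, 7.55, 6.96 and 7.31 on the others. Array 1 lay above all controls and array 3 below them. The Ogdh difference was -0.07 (SE 0.21, limma adjusted p = 0.845).

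**Figure D3:**
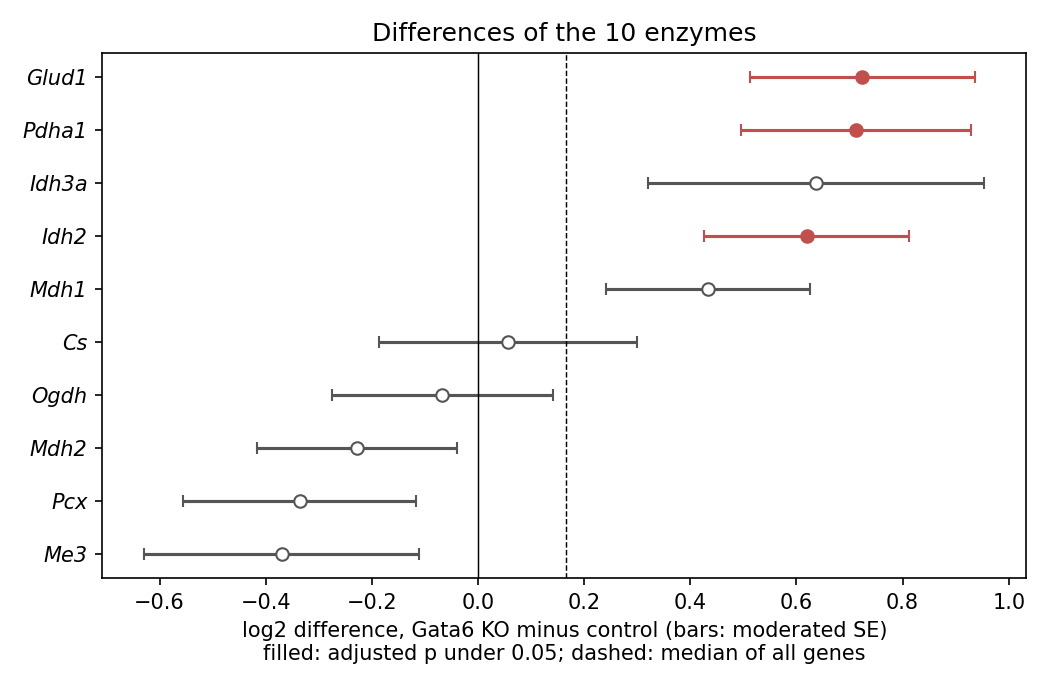
Log2 difference between Gata6 KO (n = 4) and control (n = 3) arrays for the 10 enzymes (horizontal axis), with bars of 1 moderated SE. Filled red points passed an adjusted p under 0.05, the solid line marks 0 and the dashed line marks the median of all genes, 0.17. Values run from -0.37 for Me3 to 0.72 for Glud1.

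Malate is oxidised by Mdh2 inside mitochondria and by Mdh1 in the cytosol, and together they carry reducing equivalents in the malate-aspartate shuttle. Their upstream windows are shown as the second pair that moved apart. Mdh1 lies at chr11:21571885-21572184 on the minus strand and Mdh2 at chr5:135778399-135778698 on the plus strand of GRCm38.p6 (RefSeq). Capitals mark CCAAT boxes and, in Mdh2, the letters GATAA.
Mdh1: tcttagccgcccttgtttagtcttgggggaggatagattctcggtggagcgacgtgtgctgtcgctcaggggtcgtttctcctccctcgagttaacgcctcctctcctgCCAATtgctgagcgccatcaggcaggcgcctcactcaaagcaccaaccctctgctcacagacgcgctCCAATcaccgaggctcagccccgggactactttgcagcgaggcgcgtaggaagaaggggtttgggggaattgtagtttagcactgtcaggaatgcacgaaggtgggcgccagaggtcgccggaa
Mdh2: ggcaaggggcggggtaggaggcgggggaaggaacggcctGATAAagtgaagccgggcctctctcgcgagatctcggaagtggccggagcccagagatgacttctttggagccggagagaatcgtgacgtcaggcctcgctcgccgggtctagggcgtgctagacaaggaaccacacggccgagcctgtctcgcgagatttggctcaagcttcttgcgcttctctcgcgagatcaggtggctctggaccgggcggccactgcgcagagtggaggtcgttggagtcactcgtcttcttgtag
The Mdh1 window holds 2 CCAAT boxes and no GATAA, and the Mdh2 window holds 1 GATAA and no CCAAT box. GATAA, the core of sites that GATA factors can bind, stood in 25.4% of all 32851 windows on either strand. Among the 9 enzymes with a listed window, it was also found in those of Cs and Ogdh, none of which was called. The windows were also searched on both strands for the NRF1 site (in 4.6% of all windows) and the ERR half-site TCAAGGTCA (0.423%), and no window of the 9 held either.

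Mdh1 measured 6.71, 6.50 and 6.41 in the controls and 6.97, 7.07, 6.71 and 7.14 on the Gata6 KO arrays. Its groups touched without overlapping, since control array 1 (6.712) lay just under Gata6 KO array 3 (6.715). The Mdh1 difference was 0.43 (SE 0.19, limma adjusted p = 0.115). Mdh2 measured 7.27, 7.41 and 7.35 in the controls and 7.21, 7.16, 6.81 and 7.27 on the others. Array 4 reached the lowest control and the other arrays lay below. The Mdh2 difference was -0.23 (SE 0.19, limma adjusted p = 0.405). After quantile normalization it was -0.53 (adjusted p = 0.0324).

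Neither malate dehydrogenase passed alone, but their balance within an array changed. Mdh1 minus Mdh2 was -0.55, -0.91 and -0.95 in the controls and -0.25, -0.09, -0.10 and -0.13 on the Gata6 KO arrays. The 4 Gata6 KO arrays agreed closely, with an SD of 0.071, and all lay above the controls. The balance moved by 0.66 towards Mdh1 (exact two-sided permutation p = 0.0286, the smallest possible, adjusted p = 0.0429 over 3 pairs). Without any 1 array it moved by between 0.59 and 0.79. This pair too was chosen with earlier results of these data known, and its p does not allow for that choice. How often other gene pairs are apart was not computed, and 34.3% of all single genes were apart in either direction.

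**Figure D4:**
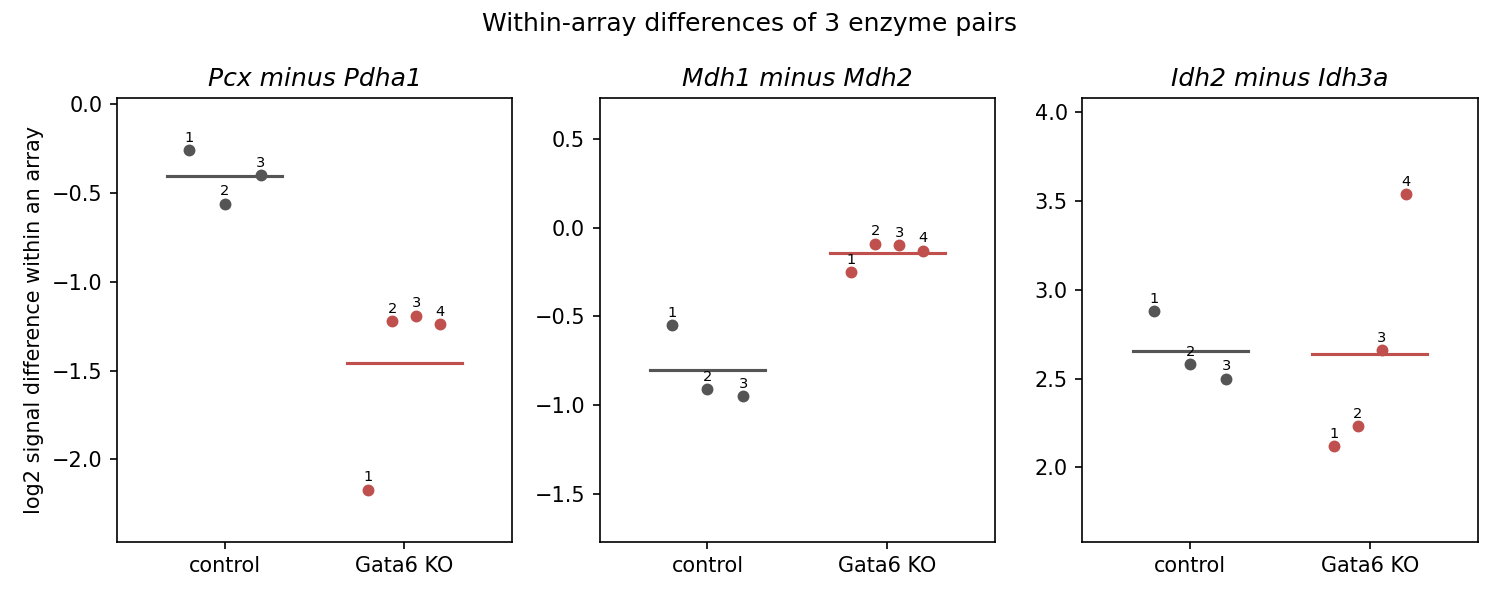
Difference of log2 signals within an array (vertical axis) for 3 enzyme pairs, with the replicate number beside each point and a line at the group mean (grey control, n = 3; red Gata6 KO, n = 4). The groups are apart for Pcx minus Pdha1 and for Mdh1 minus Mdh2, and overlap for Idh2 minus Idh3a.

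Me3, the mitochondrial NADP-dependent malic enzyme that returns malate to pyruvate, gave a low signal. It measured 2.22, 3.10 and 2.12 in the controls and 2.25, 1.75, 2.22 and 2.22 on the others. These values lie near the median of tested genes, 2.23 to 2.57 per array, where changes are compressed. Control array 2 stood above the other arrays, and the Me3 difference of -0.37 (SE 0.26) did not pass (limma adjusted p = 0.320). Without that array it was -0.06. A second Me3 probe set gave 2.13, 2.68 and 2.50 in the controls and 1.56, 1.86, 2.30 and 2.08 on the others, again with overlap.

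Glud1, glutamate dehydrogenase, feeds 2-oxoglutarate into the cycle, and its activating mutations cause insulin excess in humans. It measured 6.49, 6.54 and 6.86 in the controls and 7.68, 7.45, 6.95 and 7.33 on the Gata6 KO arrays. Array 3 lay just above control array 3 and the other arrays well above. The Glud1 difference was 0.72 (SE 0.21, limma adjusted p = 0.0232), or 0.56 relative to the median gene. The Glud1 call was lost with centring (adjusted p = 0.143), after quantile normalization (adjusted p = 0.0763), without control array 1 or 2 (adjusted p = 0.0976 and 0.0887), and without Gata6 KO array 1 or 2 (adjusted p = 0.0548 and 0.0604).

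The 4 enzymes with non-overlapping groups were Pdha1, Idh2, Mdh1 and Glud1, all towards higher values, where 24.4% of all genes were apart in that direction and 34.3% in either. No enzyme was apart in the other direction, against 9.96% of all genes. The Gata6 KO arrays also held an order of their own. Array 3 gave the lowest of the 4 values for 7 of the 10 enzymes, where it was lowest for 28.5% of all genes, and array 1 gave the highest for 7 of 10, against 25.5%. Array 3 also had the lowest beta-cell mean (5.14), and array 1 the highest mesenchymal mean (5.56). Control array 3 and Gata6 KO array 3 shared a low signal of Xist, the RNA of the inactive X chromosome (1.34 and 2.15, against 5.02 to 5.60 on the other arrays). Between those 2 arrays Pdha1 differed by 0.26, Idh2 by 0.46 and Glud1 by 0.098. Among the 5 arrays with high Xist these differences were 0.87, 0.65 and 0.97 (limma adjusted p = 0.0281, 0.0600 and 0.0123). With Xist class as a block Pdha1, Idh2 and Glud1 passed (adjusted p = 0.0269, 0.0287 and 0.0257).

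Among the partners of pyruvate dehydrogenase and the mitochondrial pyruvate carrier, of 13 measured genes (14 listed) 6 rose and 0 fell. Of all genes 17.4% were called higher and 7.36% lower. The list median was 0.35 (0.12 with centring). At an unadjusted p under 0.05 the count of falls was also 0. Dld, the E3 subunit shared by the pyruvate and 2-oxoglutarate complexes, measured 5.67, 5.51 and 5.28 in the controls and 6.89, 6.72, 6.84 and 6.39 on the others. Its difference relative to the median gene was 1.06 (SE 0.20, limma adjusted p = 7.31e-04). Mpc1, a subunit of the pyruvate carrier, measured 6.89, 6.65 and 6.02 and then 7.90, 7.58, 7.19 and 7.86, a relative difference of 0.95 (SE 0.24, adjusted p = 0.00487). The groups were apart for both genes. Averaged over all its probe sets the Mpc1 difference as measured went from 1.11 to 0.75 and still passed (limma adjusted p = 0.0353).

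Of 7 measured regulators of the complex, the kinases Pdk1, Pdk3 and Pdk4 and the phosphatase Pdp1 rose. The kinase Pdk2 (0.14, SE 0.24), the phosphatase Pdp2 (-0.01, SE 0.22) and the phosphatase regulator Pdpr (0.28, SE 0.24) did not pass. Pdk4, a kinase that switches pyruvate dehydrogenase off, rose by 1.47 relative to the median gene (SE 0.39, limma adjusted p = 0.00777). Its values on the Gata6 KO arrays ran from 4.11 to 6.36, and among the arrays with high Xist alone it did not pass (adjusted p = 0.0585). Pdp1, a phosphatase that switches the enzyme on, rose by 0.84 relative to the median gene (SE 0.22, adjusted p = 0.00500). Its signal was low, 2.42 to 2.69 in the controls and 3.24 to 3.92 on the others. The kinases Pdk1 and Pdk3, named after their values were seen, rose by 0.48 (SE 0.20) and 0.62 (SE 0.21) relative to the median gene, and both calls were lost with centring (adjusted p = 0.184 and 0.0964). Pdk1 also did not pass without control array 1 or 2 or Gata6 KO array 1, 2 or 4 (adjusted p from 0.0503 to 0.125), nor averaged over all its probe sets (0.32, adjusted p = 0.267), nor Pdk3 without control array 1 or 3 (adjusted p = 0.0575 and 0.0565). Pdhb, Dlat and Pdhx, the other core subunits, differed by 0.16 (SE 0.22), 0.35 (SE 0.23) and -0.06 (SE 0.25) and did not pass.

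Of 13 measured genes of other TCA cycle enzymes and their assembly factors (14 listed), 4 rose and 0 fell. Of all genes 17.4% were called higher and 7.36% lower. The list median was 0.14, beside 0.17 for all genes. The list median became -0.09 with centring, -0.001 after quantile normalization, -0.02 without Gata6 KO array 1 and 0.29 without Gata6 KO array 3. Without control array 1 the rises numbered 1. At an unadjusted p under 0.05 there was 1 lower value, that of the assembly factor Sdhaf2 (-0.47, SE 0.21). Idh3g, a regulatory subunit of Idh3, measured 6.58, 6.59 and 6.27 in the controls and 7.51, 7.19, 7.25 and 7.70 on the others, a relative difference of 0.77 (SE 0.20, limma adjusted p = 0.00414). Idh3b, the other partner of Idh3a, differed by -0.12 (SE 0.20) and did not pass. Suclg1 and Suclg2, the subunits of GTP-forming succinyl-CoA ligase, rose by 0.80 (SE 0.24) and 0.58 (SE 0.20) relative to the median gene. Sdhb, the iron-sulfur subunit of succinate dehydrogenase, rose by 0.55 (SE 0.20, adjusted p = 0.0203). With centring the calls of Suclg1, Suclg2 and Sdhb were lost (adjusted p = 0.0581, 0.108 and 0.132), and without control array 1 as well (adjusted p = 0.0565, 0.0950 and 0.0936). Sdhb also did not pass without control array 2 (adjusted p = 0.0706), nor Suclg2 averaged over all its probe sets (adjusted p = 0.0527). After quantile normalization Suclg2 did not pass (adjusted p = 0.069), nor did Suclg1 among the arrays with high Xist (adjusted p = 0.061). Sdha, Dlst and Fh1 differed by 0.12 (SE 0.22), -0.05 (SE 0.20) and 0.14 (SE 0.24) and did not pass.

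**Figure D5:**
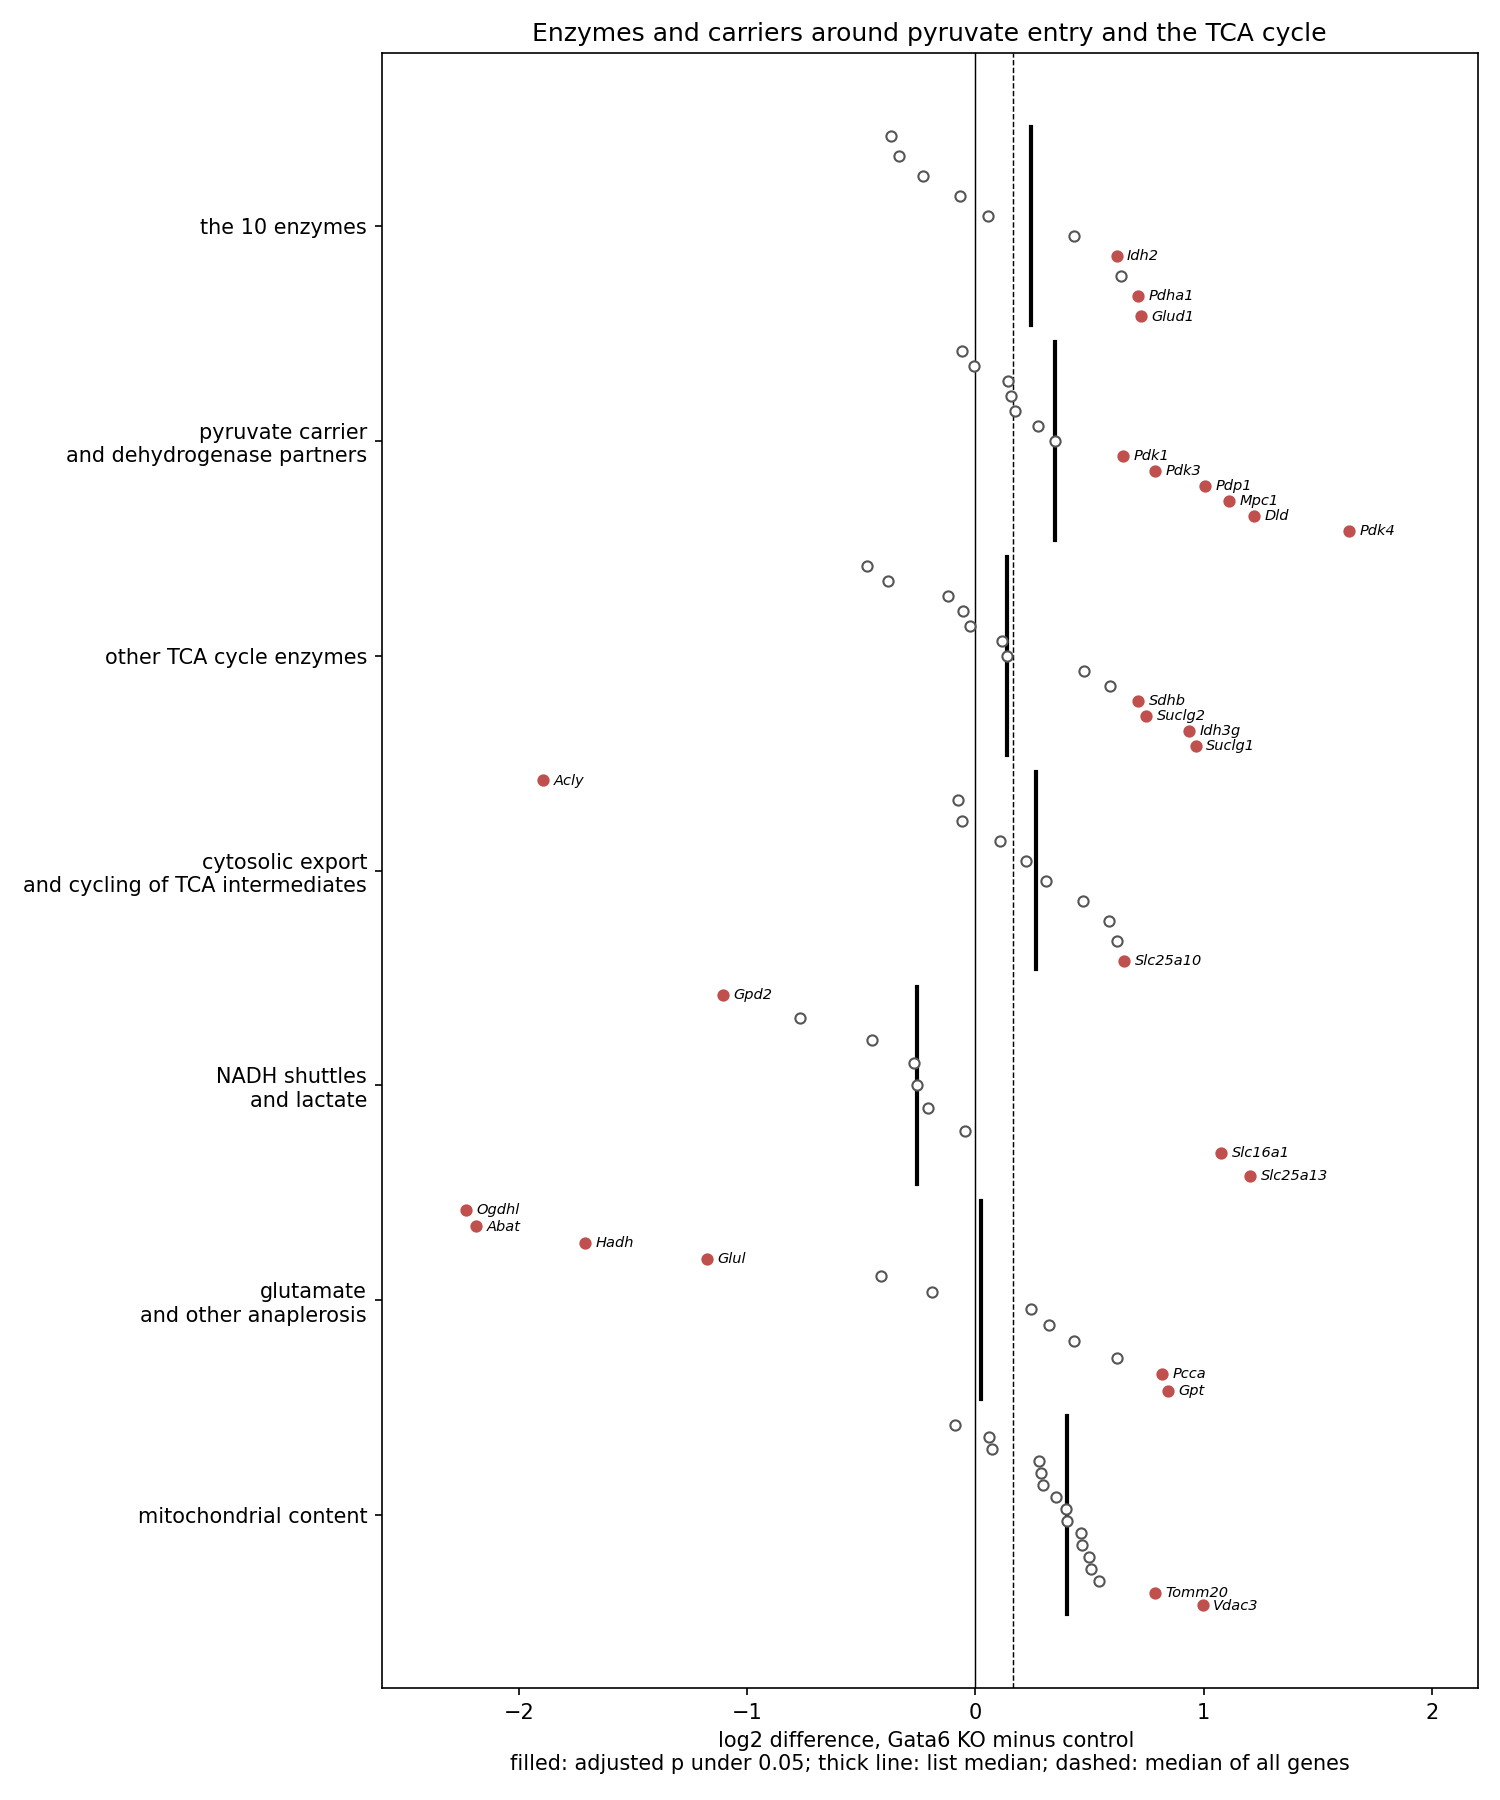
Log2 difference between Gata6 KO (n = 4) and control (n = 3) arrays (horizontal axis) for each measured gene of the 10 enzymes, 5 pathway lists and a mitochondrial content list (rows). Red points passed an adjusted p under 0.05, thick lines are list medians and the dashed line is the median of all genes (0.17). Ogdhl, Abat, Acly, Hadh, Glul and Gpd2 lie between -2.23 and -1.10, Slc25a12 at -0.77 and Pdk4 at 1.64, and every other gene between -0.47 and 1.22.

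The largest differences around the cycle were the falls of Ogdhl, Abat, Acly and Hadh, from the lists of export and of glutamate metabolism. The beta-cell marker mean was lower on the same arrays (5.14 to 6.73, against 8.12 to 8.70), and its part in these falls was not tested. Of 10 genes of export and cycling 1 rose and 1 fell, where 17.4% of all genes were called higher and 7.36% lower. Acly, the ATP citrate lyase that splits exported citrate into acetyl-CoA and oxaloacetate, measured 9.00, 8.53 and 8.02 in the controls and 6.84, 7.04, 6.10 and 6.52 on the others. Its relative difference was -2.06 (SE 0.26, limma adjusted p = 2.07e-04). Slc25a10, the dicarboxylate carrier, rose by 0.49 relative to the median gene (SE 0.21, adjusted p = 0.0329). The Slc25a10 call was lost with centring (adjusted p = 0.196) and without any 1 array other than Gata6 KO array 4 (adjusted p from 0.0597 to 0.107). It was also lost after quantile normalization (adjusted p = 0.0684) and among the arrays with high Xist (adjusted p = 0.155). The cytosolic malic enzyme Me1 and the mitochondrial Me2 differed by 0.31 (SE 0.35) and 0.62 (SE 0.23) and did not pass, nor did the citrate carrier Slc25a1 (-0.08, SE 0.19).

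Of 9 genes of NADH shuttles and lactate handling, 2 rose and 1 fell, where 17.4% of all genes were called higher and 7.36% lower. The list median was -0.25 (-0.14 without Gata6 KO array 3 and -0.08 averaged over all probe sets). Gpd2, the mitochondrial glycerol-3-phosphate dehydrogenase of the glycerol phosphate shuttle, measured 5.45, 5.32 and 5.51 in the controls and 4.47, 4.44, 4.24 and 4.14 on the others. Its relative difference was -1.27 (SE 0.20, limma adjusted p = 0.00118). The 2 aspartate-glutamate carriers of the malate-aspartate shuttle lay on opposite sides of 0. Slc25a13 rose by 1.04 relative to the median gene (SE 0.25, adjusted p = 0.00324), and Slc25a12 differed by -0.77 as measured (SE 0.27) without passing (adjusted p = 0.0543). The lactate and pyruvate transporter Slc16a1, which beta cells keep low, rose by 0.91 relative to the median gene (SE 0.24, adjusted p = 0.00566). It measured 1.73 to 2.21 in the controls and 2.78 to 3.57 on the others, a low signal throughout. The lactate dehydrogenase gene Ldha, measured by a probe set between 1.80 and 2.77, differed by -0.25 (SE 0.23) and did not pass.

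Of 12 measured genes of glutamate metabolism and other anaplerosis (14 listed) 2 rose and 4 fell, where 17.4% of all genes were called higher and 7.36% lower. Ogdhl, an isoform of Ogdh, measured 5.45, 4.81 and 4.14 in the controls and 2.49, 2.43, 2.28 and 3.09 on the others. Its relative difference was -2.40 (SE 0.30, limma adjusted p = 1.36e-04), while Ogdh itself did not pass. Abat, the GABA transaminase that returns GABA carbon to the cycle, had a relative difference of -2.35 (SE 0.28, adjusted p = 1.01e-04). Averaged over all its probe sets the Abat difference as measured went from -2.19 to -1.43 and still passed (adjusted p = 0.00167). Hadh, a fatty acid oxidation enzyme that binds and inhibits glutamate dehydrogenase, measured 9.86, 9.50 and 9.62 in the controls and 8.00, 7.95, 7.47 and 8.37 on the others. Its relative difference was -1.88 (SE 0.22, adjusted p = 9.00e-05), opposite in direction to that of Glud1. Glul, glutamine synthetase, had a relative difference of -1.34 (SE 0.21, adjusted p = 0.00124), but averaged over all its probe sets the difference as measured went from -1.18 to -0.49 (adjusted p = 0.0848). The genes that rose, Gpt (alanine transaminase) and Pcca (a subunit of propionyl-CoA carboxylase), were named after their values were seen. They rose by 0.68 (SE 0.23) and 0.65 (SE 0.19) relative to the median gene, and both calls were lost with centring (adjusted p = 0.0755 and 0.0579). Gpt also did not pass without control array 1 (adjusted p = 0.112).

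Of 16 genes chosen as gauges of mitochondrial content 2 rose and 0 fell (0 also at an unadjusted p under 0.05). Of all genes 17.4% were called higher and 7.36% lower. The list median of 0.40 was 0.17 with centring, where that of all genes was -0.06. Vdac3, a channel of the outer membrane, and Tomm20, a receptor of protein import, rose by 0.83 (SE 0.24, limma adjusted p = 0.00913) and 0.62 (SE 0.22, adjusted p = 0.0184) relative to the median gene. Both calls were lost with centring (adjusted p = 0.0510 and 0.111). Vdac3 also did not pass without control array 3 (adjusted p = 0.0538) or among the arrays with high Xist (adjusted p = 0.0522). Nor did Tomm20 pass without control array 1 or 2 (adjusted p = 0.0937 and 0.0690).

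Of the 24 genes called among the 10 enzymes and the 5 pathway lists, 11 were called in the same direction under all 18 alternatives. That share was not computed over all called genes, so whether these lists are more or less stable than other genes was not tested. The rises among them were Dld, Mpc1, Pdp1, Idh3g, Slc25a13 and Slc16a1. The falls were Acly, Gpd2, Hadh, Abat and Ogdhl. None of the 10 enzymes was among the 11. With centring the higher and lower counts were 4 and 0 for the pyruvate dehydrogenase partners and 1 and 1 for the other TCA cycle enzymes. They were 0 and 1 for export, 2 and 3 for the NADH shuttles and 0 and 5 for glutamate metabolism. Among all 22180 genes 1870 were higher and 2769 lower with centring, so the shares of 17.4% and 7.36% do not apply to these counts. Sdhaf2, Got2, Slc25a12 and Aldh5a1, named after their values were seen, were called lower by limma with centring and not in the values as deposited (adjusted p = 0.0342, 0.0474, 0.0206 and 0.0486). The NADH shuttle list had 3 lower calls after quantile normalization as well, where 2477 of all 22180 genes were lower.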

How the data were processed

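Gene expression was measured on 7 arrays (3 control, 4 Gata6 KO). The deposited log2 values of 41345 probe sets were made by the authors with RMA in Transcriptome Analysis Console, per the submitters' processing notes. Base 2 is taken from RMA, and versions and genome build are not given in the sources used here. Scanner files were not used here. Genes were named through the platform annotation from probe sets with 1 symbol, taking the probe set with the highest mean, which left 22180 genes. The test was limma's (version 3.58.1, R 4.3.3) by lmFit and eBayes with trend and no covariate, Benjamini-Hochberg adjusted over all genes. SEs are moderated. Within-array differences of 3 enzyme pairs used exact permutation (scipy 1.17.1). The 10 enzymes, the gene lists and the pairs were chosen with earlier results of these data known. Named genes are the 10 enzymes, Gata6, up to 4 called genes with the smallest p of each pathway list and the 2 most abundant markers of each cell type. All other genes were named after their values were seen. In simulated data for this comparison over 22180 genes, 40% of changes of 1 and 93% of changes of 2 (log2) were recovered. The simulation changed far fewer genes than were called in the data, so its adjusted threshold was stricter. These shares therefore do not give the recovery in the data. Replicate numbers were not used to pair the arrays in the main fit, and the sample titles name no pairing. Same-numbered arrays' deviations from their group means correlated by 0.0976, 0.00432 and 0.115, which cannot settle whether pools were paired. Alternatives covered scaling, filtering, probe sets, eBayes options, weights, blocks and left-out arrays. Figures were drawn with matplotlib 3.10.9.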

Additional observations from a re-analysis of the deposited data

Results flagged for a closer look

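In the group of 4 Gata6 KO arrays, 5 of 59 sets of values had 1 array far from the other arrays, where chance gives about 1 in 20. The within-array difference of Pcx and Pdha1 was -2.17 on array 1, against -1.24 to -1.19 on the other arrays. Me3 measured 1.75 on array 2, against 2.22 to 2.25. Slc25a10 measured 3.78 on array 4, against 4.20 to 4.24. Gata6 measured 5.01 on array 4, against 5.34 to 5.41. Gcg, the glucagon gene and 1 of the 2 most abundant markers of the other endocrine list, measured 6.85 on array 3, against 10.31 to 10.55.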

How the results depend on the processing

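The number of arrays limits the precision, and changes of low signals such as Me3 are compressed. Of all genes 5486 changed, 3853 higher and 1633 lower (70.2% higher). With centring 1870 were higher and 2769 lower (40.3% higher), and after quantile normalization 2440 and 2477 (49.6% higher). Of the 10 enzymes 3 were higher and 0 lower, against 0 higher with centring, 1 higher and 1 lower after quantile normalization and 0 at an adjusted p under 0.01, where 2797 genes changed (1855 higher, 942 lower). On the arrays with high Xist 3337 genes changed, 2231 of them higher. Leaving out 1 array gave from 3265 (without control array 1) to 5613 genes changed, 2246 to 3812 higher and 1019 to 1801 lower, and from 0 to 4 of the 10 enzymes higher and 0 lower. The 10 enzymes had 0 higher calls without control array 1 or 2 or Gata6 KO array 1 or 2, and 1 without control array 3.

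Pcx minus Pdha1 ran from -1.14 to -0.81 without 1 array, and Mdh1 minus Mdh2 from 0.59 to 0.79. They were -1.29 and 0.64 with Gata6 KO arrays 1 and 2 alone. None of these smaller sets can pass. Idh2 minus Idh3a ran from -0.32 to 0.16, positive without control array 1 (0.094) or Gata6 KO array 1 (0.155) or 2 (0.117). Values near 0 changed sign. Cs (0.06) was -0.17 with centring, -0.16 after quantile normalization, and -0.108 to 0.217 without 1 array (negative without control array 2 or Gata6 KO array 1 or 4). Ogdh was 0.031 with high Xist, 0.18 with Gata6 KO arrays 1 and 2, and -0.173 to 0.071 without 1 array (positive without control array 1 or Gata6 KO array 3). The acinar gene Ctrb1 was -0.18 with centring. Cela1 was -0.21 with centring, -0.12 after quantile normalization and -0.016 to 0.066 without 1 array (negative without control array 1 or Gata6 KO array 4). The cause of these changes was not tested.

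With the replicate number as a block 5921 genes changed and 4 enzymes were higher, since Idh3a passed (0.91, adjusted p = 0.0218). In that blocked fit Gata6 passed (adjusted p = 0.0388) and Pdk1 did not (adjusted p = 0.0580), while Cs was -0.010 and Cela1 -0.004. The block leaves out Gata6 KO array 4, which has no control of its number. Without a block Gata6 was also called higher without Gata6 KO array 4 (adjusted p = 0.0333), with array weights (0.0312), without a trend (0.0471), with the lowest 40% of genes left out (0.0495) and with Gata6 KO arrays 1 and 2 (0.0457).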
